A study of Mus musculus with 6 samples.

Results

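The genes described here are 10 that move ions and water across the colonic epithelium: Slc26a3, Slc9a3, Slc9a2, Car1, Car4, Aqp8, Scnn1a, Cftr, Slc12a2 and Atp12a. They were chosen by name for their roles, with earlier results of these data known. They came out of 19938 genes that had a probe set of their own on the array. Each was measured by 1 probe set, and all 10 were among the 16784 genes tested. RNA came from laser microdissected colon tumors of 3-week-old C57BL/6J mice. CDX2P-G19Cre;Apcflox/flox;Tgfbr2flox/flox animals (here double knockout, n = 3 tumors) lacked both Apc and Tgfbr2 in their tumors, and CDX2P-G19Cre;Apcflox/flox mice (Apc knockout, n = 3 tumors) lacked Apc alone. Both groups therefore carried the same Cre transgene and the Apc deletion, and the comparison asks what loss of the TGF-β receptor added to it. A human CDX2 promoter fragment drives this Cre in the gut epithelium, and the recombinase becomes active only in scattered cells. Non-recombined cells can therefore remain in a dissected tumor. Each tumor gave 1 array, and the labels do not say whether the tumors came from different mice.

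The colon absorbs salt and water from its contents. At the surface of mature colonocytes, a chloride/bicarbonate exchanger and sodium/proton exchangers work side by side to take up sodium chloride, carbonic anhydrases supply the bicarbonate and protons that they trade, and water follows. In the distal colon, an epithelial sodium channel and a pump that exports protons and takes up potassium add to this. Crypt cells, in contrast, secrete chloride that enters through a basolateral cotransporter and leaves through an apical channel.

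Signals were log2 values after robust multichip analysis (RMA), so 1 unit is a factor of 2. Levels of different genes were not set against each other, because probe sets differ in brightness. Array medians lay between 7.68 and 7.80. Between double knockout and Apc knockout tumors, Tgfbr2 differed by −0.67 on the log2 scale (standard error of the fit, SE, 0.19, adjusted p = 0.821) and Apc by −0.25 (SE 0.18). The place of these probes relative to the deleted exons is unknown, so neither level checks a genotype. Double knockout tumor 2 stood apart, with correlations of 0.904 to 0.937 to the other tumors, against 0.968 to 0.982 among those 5. Each of the 10 genes is therefore also given without it. All fold changes are double knockout over Apc knockout from limma, and adjusted p-values cover all 19506 probe sets tested. The exact permutation test over tumors, used alongside, cannot go below 0.1 with 3 tumors per group.

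Slc26a3, Car4 and Aqp8 shared a pattern across the tumors, described below, and the 250 bases before their annotated starts are therefore shown (RefSeq, GRCm38.p6). Such sequences were on hand for 5 of the 10 genes, these and Slc9a3 and Cftr. The windows lie on the plus strand at chr12:31437969-31438218 for Slc26a3, chr11:84957504-84957753 for Car4 and chr7:123462044-123462293 for Aqp8. The Slc26a3 start used is that of 1 transcript and lies inside the annotated span of the gene, which begins at position 31433142 of chromosome 12. Capitals mark the only motif match, a TATA box.
Slc26a3: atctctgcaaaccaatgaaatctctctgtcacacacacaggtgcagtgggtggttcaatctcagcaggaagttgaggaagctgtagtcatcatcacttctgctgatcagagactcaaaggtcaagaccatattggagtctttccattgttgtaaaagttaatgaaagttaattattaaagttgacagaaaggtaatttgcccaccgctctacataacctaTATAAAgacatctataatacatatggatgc
Car4: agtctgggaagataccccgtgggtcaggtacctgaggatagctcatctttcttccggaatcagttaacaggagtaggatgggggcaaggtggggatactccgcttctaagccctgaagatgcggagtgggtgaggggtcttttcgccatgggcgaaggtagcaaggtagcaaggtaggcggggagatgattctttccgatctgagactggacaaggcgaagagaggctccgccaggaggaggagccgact
Aqp8: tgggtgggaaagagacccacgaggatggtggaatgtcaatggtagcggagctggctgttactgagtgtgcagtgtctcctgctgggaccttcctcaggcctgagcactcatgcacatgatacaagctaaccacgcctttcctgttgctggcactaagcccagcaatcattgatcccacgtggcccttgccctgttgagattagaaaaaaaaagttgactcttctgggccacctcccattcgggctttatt
Exact matches on either strand were sought for TTTATG (the core of CDX2 sites), CAAAGTCCA (HNF4A), ATCAAAG (TCF/LEF), TATAAA (the TATA box), AGATAA (factors of the GATA family) and CAGACA (SMAD). ATCAAAG and CAAAGTCCA can overlap through CAAAG, and TTTATG can overlap the reverse complement of TATAAA. Of 32851 mouse promoter windows of the same length, 10.8% held the CDX2 letters, 0.384% the HNF4A, 3.21% the TCF/LEF, 12.4% the TATA box, 9.99% the GATA and 17.1% the SMAD letters. Among the 5 windows the single match was the TATA box of Slc26a3, which starts 30 bases before the transcript. G and C made up 38.8% of the Slc26a3 window, 56.4% of the Car4 window and 52.4% of the Aqp8 window.

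None of the 10 transport genes separated the groups. Their log2 fold changes were positive for 9 and negative for 1, with a median of 0.66, against 0.010 over all probe sets tested. Adjusted p-values below 0.05 were found for 0 of the 10, and for 0% of all probe sets in either direction. At an unadjusted p below 0.05, 1 of the 10 passed (Cftr, higher), beside 1.78% of all probe sets higher and 3.82% lower. In 0 of the 10 did every double knockout tumor lie on 1 side of every Apc knockout tumor, whereas 12.2% of all probe sets had such non-overlapping groups. The transport genes varied strongly between tumors nonetheless: the range over the 6 tumors was at least 2 log2 units for 7 of 10, a range that 5.46% of probe sets reached. In a bulk tumor sample, fewer cells of a type and less RNA per cell cannot be told apart.

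**Figure D1:**
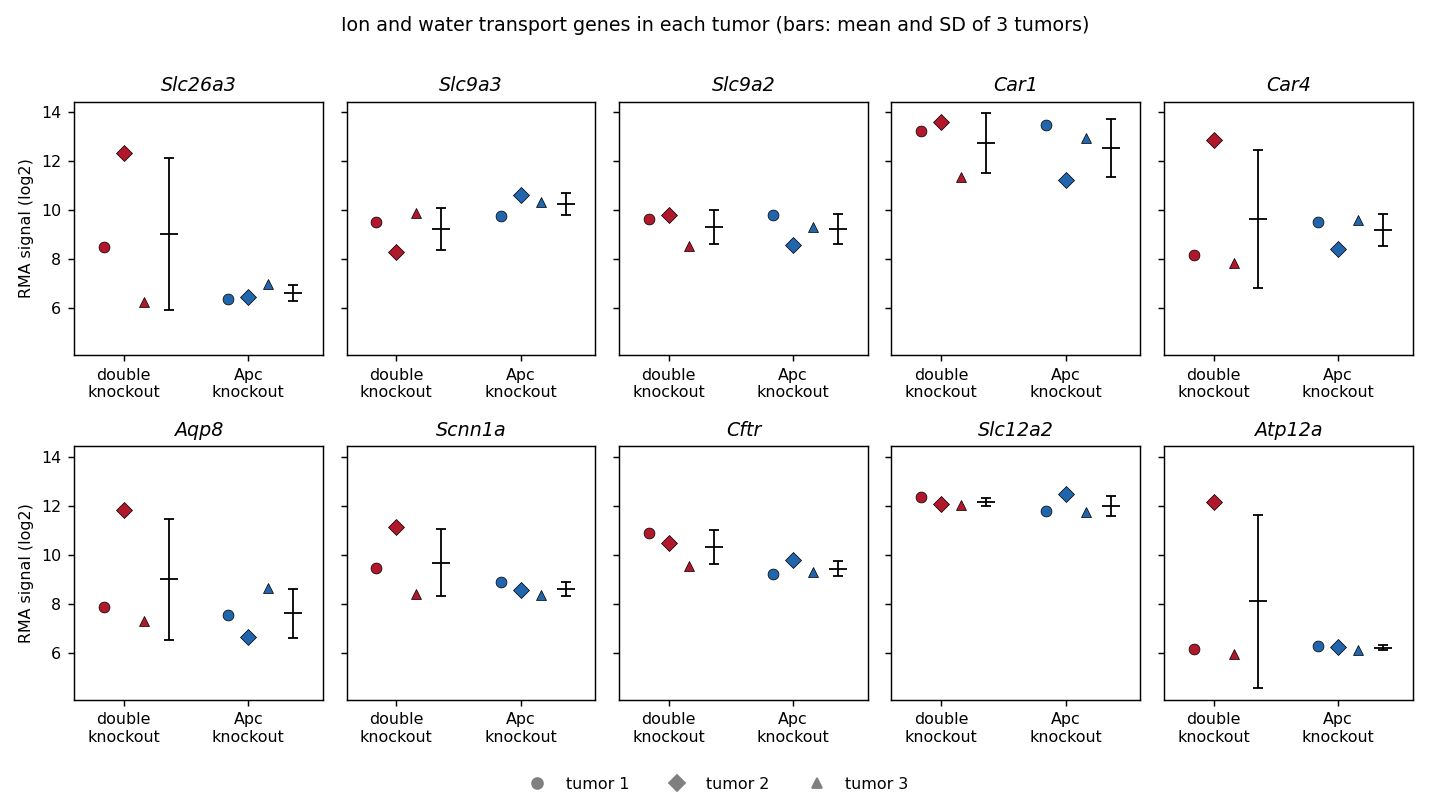
Log2 signal of each transport gene (vertical axis, log2 units) in the 3 double knockout tumors on the left and the 3 Apc knockout tumors on the right of each panel. Symbols mark tumors 1, 2 and 3, and bars are the mean and SD of each group. Double knockout tumor 2 lies far above all others for Slc26a3, Car4, Aqp8, Scnn1a and Atp12a, and below them for Slc9a3.

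Slc26a3 (DRA), the apical exchanger that takes up chloride for bicarbonate, had log2 signals of 8.49, 12.35 and 6.25 in double knockout tumors 1, 2 and 3, against 6.39, 6.47 and 6.98 in Apc knockout tumors 1, 2 and 3. The double knockout group thus held the highest, the second highest and the lowest of the 6 values. Its means were 9.03 ± 3.09 (SD, n = 3) in double knockout and 6.61 ± 0.32 (SD, n = 3) in Apc knockout tumors, a log2 fold change of 2.42 (5.34-fold, SE 1.44, 95% confidence interval −1.09 to 5.93, adjusted p = 0.824). The two-sided exact permutation test gave p = 0.4. Without double knockout tumor 2 the log2 fold change was 0.76. The Apc knockout values and that of double knockout tumor 3 lay low on their arrays (percentiles 25.0 to 36.9). They were not shown to be above background, so the size of the differences and folds of Slc26a3 is uncertain.

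Slc9a3 (NHE3), the main apical sodium/proton exchanger of absorptive cells and partner of Slc26a3, ran the other way. Its log2 signals were 9.52, 8.27 and 9.90 in double knockout tumors 1 to 3, against 9.76, 10.62 and 10.35 in Apc knockout tumors 1 to 3. The groups overlapped only because double knockout tumor 3 lay above Apc knockout tumor 1, and double knockout tumor 2 was the lowest, by 1.24. Means of 9.23 ± 0.85 in double knockout and 10.24 ± 0.44 in Apc knockout tumors (SD, n = 3 each) gave a log2 fold change of −1.01 (2.01-fold lower, SE 0.45, adjusted p = 0.821). The exact permutation test gave p = 0.2, and the log2 fold change without double knockout tumor 2 was −0.53, smaller but of the same sign.

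Slc9a2 (NHE2), a second apical sodium/proton exchanger, had log2 signals of 9.65, 9.79 and 8.53 in double knockout tumors 1 to 3, against 9.82, 8.59 and 9.32 in Apc knockout tumors 1 to 3. Both groups spanned nearly the same values. The log2 fold change was 0.082 (SE 0.44, 95% confidence interval −0.99 to 1.15, adjusted p = 0.975, exact permutation p = 1), and −0.15 without double knockout tumor 2. The interval over all 6 tumors leaves room for a difference of up to about 2.22-fold.

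Car1 and Car4 are the cytosolic and the membrane-anchored carbonic anhydrase of colonocytes. Car1 was at 13.25, 13.61 and 11.36 in double knockout tumors 1 to 3, against 13.48, 11.22 and 12.95 in Apc knockout tumors 1 to 3. Each group held both high and low tumors, and 4 of the 6 lay above 12.9. The log2 fold change was 0.19 (SE 0.79, adjusted p = 0.966, exact permutation p = 0.7), and −0.25 without double knockout tumor 2. The low tumors, double knockout 3 and Apc knockout 2, were also the lowest pair for Slc9a2.

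Car4 was at 8.16, 12.87 and 7.85 in double knockout tumors 1 to 3, against 9.51, 8.42 and 9.62 in Apc knockout tumors 1 to 3. Double knockout tumor 2 exceeded every other tumor by at least 3.26, and the remaining double knockout tumors were the lowest of the 6. Means of 9.63 ± 2.81 in double knockout and 9.18 ± 0.66 in Apc knockout tumors (SD, n = 3 each) gave a log2 fold change of 0.45 (SE 1.35, adjusted p = 0.950, exact permutation p = 1). Without double knockout tumor 2 the sign turned, to −1.18 (unadjusted p = 0.0210, adjusted p = 0.767), and the groups no longer overlapped. Car4 alone of the 10 had an unadjusted p below 0.05 in that fit, beside 5.71% of all probe sets. It was also the only 1 with non-overlapping groups, which 20.2% of all probe sets had.

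Aqp8, the water channel of surface colonocytes, had log2 signals of 7.88, 11.83 and 7.29 in double knockout tumors 1 to 3, against 7.54, 6.64 and 8.63 in Apc knockout tumors 1 to 3. Apart from double knockout tumor 2, which was higher by at least 3.20, the tumors of both groups were interleaved. The log2 fold change was 1.39 (2.63-fold, SE 1.24, adjusted p = 0.836, exact permutation p = 0.6), and −0.021 without double knockout tumor 2.

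Scnn1a encodes the α subunit of the epithelial sodium channel. It was at 9.46, 11.13 and 8.41 in double knockout tumors 1 to 3, against 8.89, 8.54 and 8.35 in Apc knockout tumors 1 to 3. Double knockout tumors 1 and 2 lay above all Apc knockout tumors and double knockout tumor 3 among them. The log2 fold change was 1.07 (2.10-fold, SE 0.65, 95% confidence interval −0.52 to 2.66, adjusted p = 0.824, exact permutation p = 0.3). It was 0.34 without double knockout tumor 2.

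Atp12a, the non-gastric proton/potassium pump of the distal colon, had log2 signals of 6.14, 12.17 and 5.97 in double knockout tumors 1 to 3, against 6.28, 6.24 and 6.09 in Apc knockout tumors 1 to 3. A single tumor carried the signal: double knockout tumor 2 was 5.89 above the next tumor, and the other 5 lay within 0.31 of each other. Those 5 values lay close to the level below which probe sets were not tested (5.88, the 20th percentile of all sets) and were not shown to be above background, so the size of the differences and folds of Atp12a is uncertain. The log2 fold change of 1.89 (3.71-fold, SE 1.64, adjusted p = 0.835, exact permutation p = 0.9) became −0.15 without that tumor.

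Cftr, the apical chloride channel of crypt secretion, came closest to a group difference. Its log2 signals were 10.89, 10.47 and 9.54 in double knockout tumors 1 to 3, against 9.21, 9.77 and 9.28 in Apc knockout tumors 1 to 3. A single exchange of rank, between double knockout tumor 3 and Apc knockout tumor 2, kept the groups from separating. Means were 10.30 ± 0.69 in double knockout and 9.42 ± 0.31 in Apc knockout tumors (SD, n = 3 each), a log2 fold change of 0.88 (1.84-fold, SE 0.36, 95% confidence interval 0.0036 to 1.75, adjusted p = 0.821). The exact permutation test gave p = 0.2. Cftr was highest in double knockout tumor 1, and its log2 fold change was 0.80 without double knockout tumor 2.

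Slc12a2 (NKCC1), the basolateral cotransporter that loads crypt cells with chloride for secretion, varied least of the 10. It was at 12.35, 12.05 and 12.03 in double knockout tumors 1 to 3, against 11.76, 12.47 and 11.74 in Apc knockout tumors 1 to 3. Apc knockout tumor 2 was the highest of all and the other Apc knockout tumors were the lowest. The log2 fold change was 0.15 (SE 0.23, 95% confidence interval −0.40 to 0.70, adjusted p = 0.897, exact permutation p = 0.6), and 0.20 without double knockout tumor 2.

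The 10 genes thus differed most in how much they depended on double knockout tumor 2. It was the highest of the 6 tumors for 6 of the 10, whereas it was the highest for 28.5% of all probe sets tested. For Atp12a, Slc26a3, Car4, Aqp8 and Scnn1a, 5 of the 10, it exceeded the highest other tumor by more than 1 log2 unit, as it did for 2.89% of probe sets. Relative to the mean of the other double knockout tumors, its level was higher by 6.11 for Atp12a, 4.98 for Slc26a3, 4.87 for Car4, 4.25 for Aqp8 and 2.19 for Scnn1a, and lower for Slc9a3 (a difference of −1.44). Without it, 4 of the 10 log2 fold changes were positive and 6 negative, with a median of −0.084, against 0.0022 over all probe sets.

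**Figure D2:**
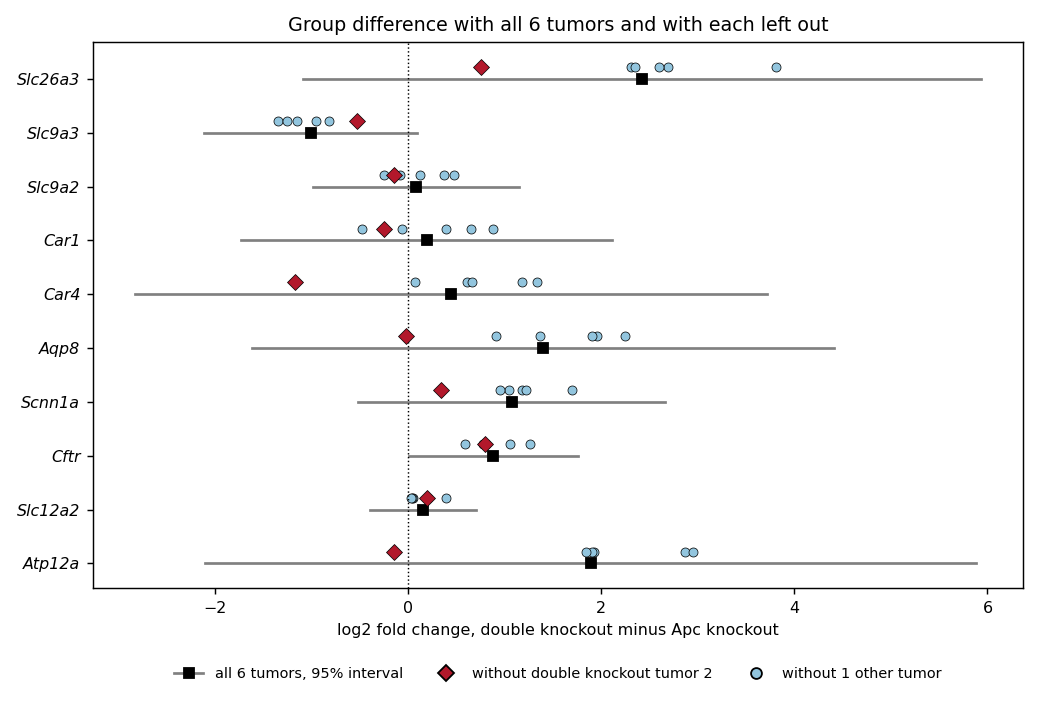
Log2 fold change (horizontal axis, log2 units, double knockout minus Apc knockout) of each transport gene with all 6 tumors and with each tumor left out in turn. Without double knockout tumor 2, Slc26a3 is at 0.76, Car4 at −1.18, Aqp8 at −0.021 and Atp12a at −0.15, while Cftr stays between 0.58 and 1.26 and Slc9a3 between −1.35 and −0.53 whichever tumor is left out.

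Leaving out other tumors moved the values too. Without double knockout tumor 3, the groups of 4 of the 10 separated, where 26.2% of all probe sets did: Slc26a3 (log2 fold change 3.81), Scnn1a (1.70) and Cftr (1.26) were higher in double knockout tumors, and Slc9a3 (−1.35) was lower. The same 4 had an unadjusted p below 0.05, beside 8.8% of all probe sets, with adjusted p-values of 0.507 for Cftr and 0.564 for the other 3. Without Apc knockout tumor 2, the log2 fold change of Slc12a2 was 0.39 (unadjusted p = 0.0410) and that of Cftr was 1.05 (unadjusted p = 0.0487), 2 of the 10 below 0.05 beside 6.35% of all probe sets. For Slc9a2, Car1 and Aqp8, double knockout tumor 3 and Apc knockout tumor 2 were the lowest pair, a pattern of 3 of the 10 and of 7.86% of all probe sets.

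Double knockout tumor 2 also differed from the rest in markers of cell type and position. Crypt stem cell and Wnt target genes were lowest in it for 9 of 10 listed (log2 of their summed signal 12.22, against 14.65 to 15.20 in the other 5 tumors). The Wnt target Notum was at 8.24 in that tumor, against 11.89 to 12.66 in the others. Smooth muscle markers were highest in it for 9 of 10 (14.19, against 12.08 to 12.71 in the others), and surface colonocyte markers for 7 of 10 (15.63, against 14.16 to 15.03). The surface marker Tmigd1, however, was lowest in it (7.53, against 7.74 to 9.43). Goblet cell markers were highest in it for 4 of 7 measured (15.88, against 14.85 to 15.68), and general epithelial markers for 7 of 10 (16.33, against 15.79 to 16.08). The mean log2 signal of the epithelial markers, however, was not highest in it (12.49, against 12.09 to 12.56), and 2 of them, Krt18 and Cdx2, were lowest in it.

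Posterior Hox genes, which mark the hindmost gut, were highest in double knockout tumor 2 for 6 of 6 listed (13.39 as the log2 of their summed signal, against 9.51 to 10.35 in the other 5). Hoxb13 was at 5.98, 12.46 and 6.37 in double knockout tumors 1 to 3, against 6.22, 6.12 and 5.96 in Apc knockout tumors 1 to 3, so that a single tumor was high, as for Atp12a. The low Hoxb13 values were likewise not shown to be above background. Cdx2, the intestinal transcription factor, was lowest in it, with 11.18, 8.24 and 10.93 in double knockout tumors 1 to 3, against 10.89, 10.73 and 10.08 in Apc knockout tumors 1 to 3. By group, the summed crypt and Wnt signal ranged from 12.22 to 14.71 in double knockout and from 14.93 to 15.20 in Apc knockout tumors. Smooth muscle ranged from 12.18 to 14.19 in double knockout and from 12.08 to 12.70 in Apc knockout tumors, and posterior Hox genes from 9.61 to 13.39 in double knockout and from 9.51 to 10.35 in Apc knockout tumors. Fibroblast markers (13.82, against 12.55 to 13.71) were highest in double knockout tumor 2, whereas leukocyte markers (12.85, against 12.78 to 13.58) and ileal markers (9.85, against 9.18 to 11.09) were within the range of the others. By group, leukocyte markers ranged from 12.78 to 12.86 in double knockout and from 13.13 to 13.58 in Apc knockout tumors. That sum is led by the brightest marker, Lyz2 (11.72 to 12.06 in double knockout and 12.03 to 12.61 in Apc knockout tumors). Of the 7 tested, 2 (Ptprc and Cd3e) had positive and 5 negative log2 fold changes, and 0 passed adjustment. Groups did not overlap for 0 of the 7, beside 12.2% of all probe sets. Among the ileal markers, Lct lay between 6.54 and 6.73 in all 6 tumors, whereas Apoa1 was at 10.41, 7.57 and 7.76 in double knockout tumors 1 to 3, against 7.32, 8.82 and 9.62 in Apc knockout tumors 1 to 3. The part of these markers in the levels of Slc26a3, Car4, Aqp8, Scnn1a, Atp12a and Slc9a3 was not tested.

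**Figure D3:**
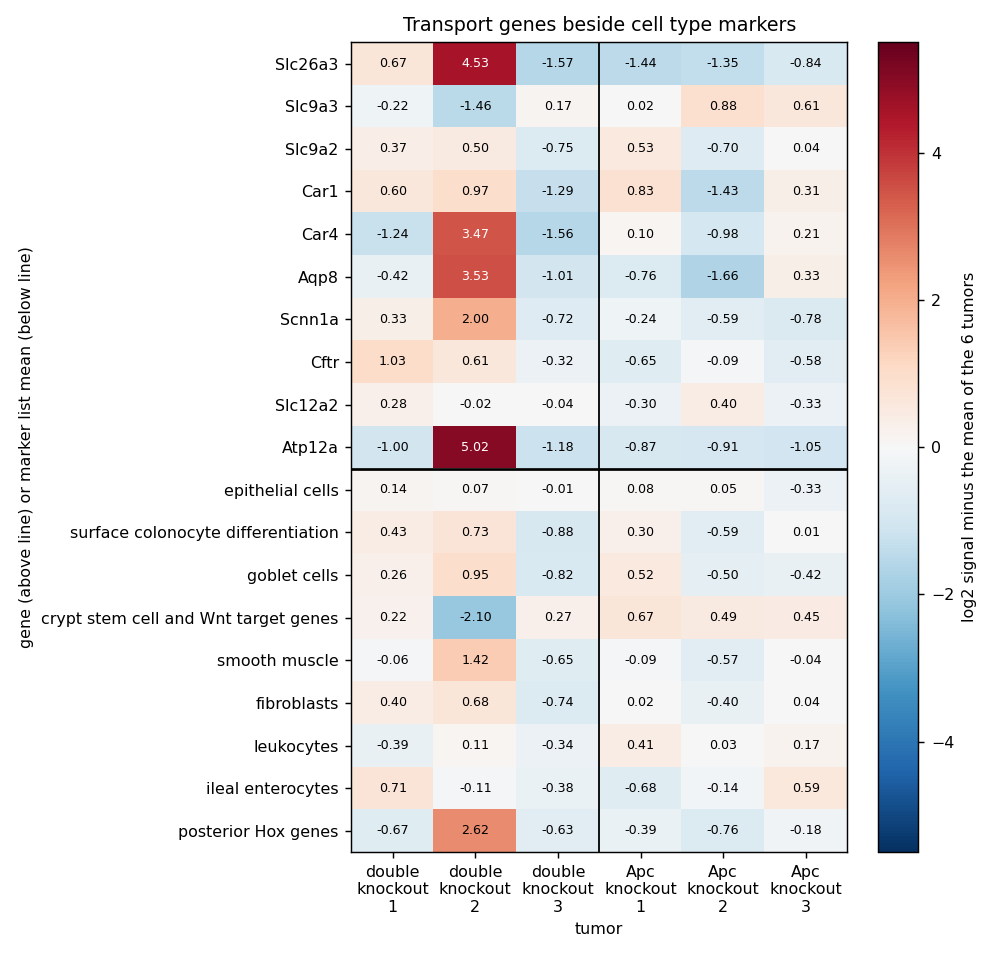
Deviation of each tumor (columns, 3 double knockout then 3 Apc knockout) from the mean of the 6 tumors, in log2 units, for the transport genes (above the line) and for the mean of each marker list (below it); red is higher and blue is lower. In the column of double knockout tumor 2, Atp12a (5.02), Slc26a3 (4.53), Aqp8 (3.53) and Car4 (3.47) are high along with posterior Hox genes (2.62) and smooth muscle (1.42), and crypt and Wnt genes (−2.10) are low.

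Another 51 genes of colonic ion and water transport, in 7 lists, were examined beside the 10, and 48 of them were measured. These lists too were drawn up with earlier results of these data known. With adjustment, 0 of the 48 passed. At an unadjusted p below 0.05, 2 were higher and 1 was lower, beside 1.78% and 3.82% of all probe sets. The same 3 of the 48 had non-overlapping groups, beside 12.2% of all probe sets. Log2 fold changes were positive for 33 and negative for 15. Double knockout tumor 2 was the highest tumor for 31 of the 48, beside 28.5% of all probe sets. Without that tumor, 24 were positive and 24 negative. The wider set thus leaned on the same tumor as the 10 genes did.

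**Figure D4:**
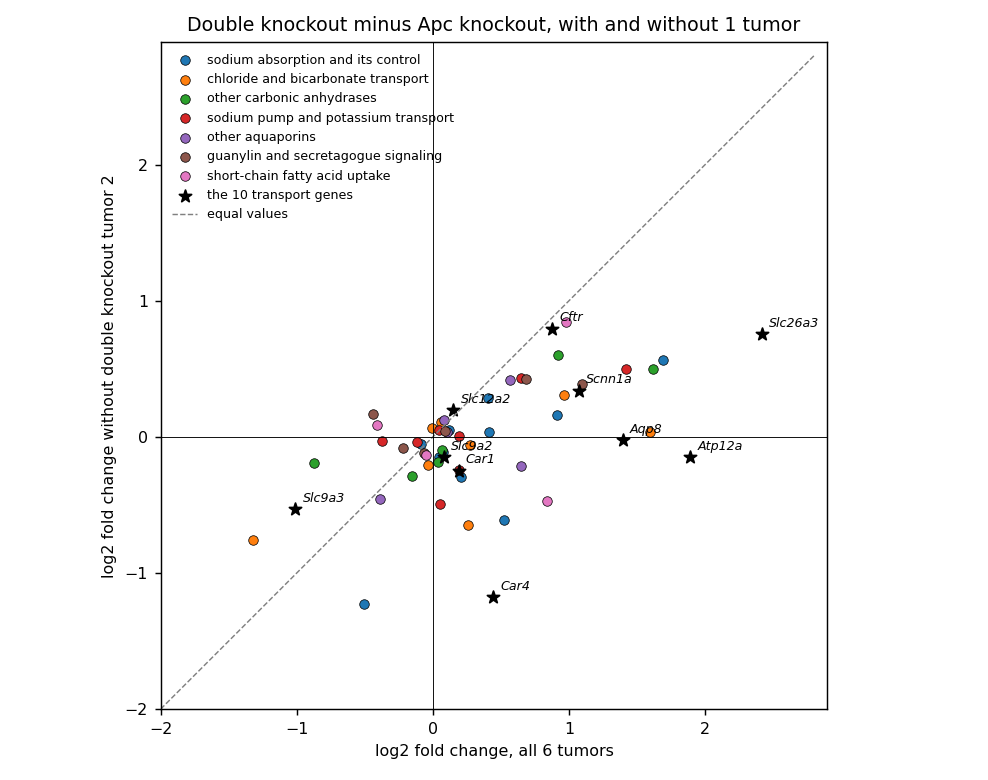
Log2 fold change without double knockout tumor 2 (vertical axis) against the log2 fold change with all 6 tumors (horizontal axis), both double knockout minus Apc knockout in log2 units, for the 10 transport genes and the 48 genes of the other lists, 1 point per gene. Points on the diagonal do not change. Stars are the 10 genes, of which Atp12a, Slc26a3, Car4 and Aqp8 lie well below the diagonal and Cftr and Slc12a2 close to it.

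Of 11 genes of sodium absorption and its control, 9 were positive and 2 negative (median log2 fold change 0.21, or −0.055 without double knockout tumor 2), and 1 passed at the unadjusted threshold. This was Slc9a3r1 (NHERF1), the scaffold that holds Slc9a3 and Cftr at the apical membrane, with 10.58, 10.87 and 10.47 in double knockout tumors 1 to 3, against 10.28, 10.21 and 10.22 in Apc knockout tumors 1 to 3. All double knockout tumors were higher (log2 fold change 0.40, adjusted p = 0.821), also without tumor 2 (0.29). Hsd11b2, which protects the mineralocorticoid receptor from glucocorticoids, had a log2 fold change of 1.69, or 0.57 without double knockout tumor 2. Nr3c2, that receptor, had one of 0.91, or 0.16 without it.

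The other subunits of the sodium channel were looked at after their values had been seen. Scnn1b (β) was at 7.86, 10.20 and 8.21 in double knockout tumors 1 to 3, against 9.28, 8.76 and 9.75 in Apc knockout tumors 1 to 3. Scnn1g (γ) was at 7.04, 10.66 and 7.49 in double knockout tumors 1 to 3, against 7.82, 7.88 and 7.91 in Apc knockout tumors 1 to 3. For both, double knockout tumor 2 was the highest and the remaining double knockout tumors were the lowest, the order seen for Car4. Log2 fold changes without double knockout tumor 2 were −1.23 for Scnn1b (unadjusted p = 0.00666, adjusted p = 0.691) and −0.61 for Scnn1g (unadjusted p = 0.00915, adjusted p = 0.715), beside 0.34 for Scnn1a. In that fit, 5 of the 48 other transport genes had an unadjusted p below 0.05, 1 higher and 4 lower, beside 5.71% of all probe sets. They were Scnn1b, Scnn1g, Slc9a3r1, Ano1 and Slc26a9. Groups did not overlap for 8 of the 48, beside 20.2% of all probe sets.

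Of 8 chloride and bicarbonate transport genes, 5 were positive and 3 negative (median 0.16, or −0.010 without double knockout tumor 2). Slc26a9, an epithelial chloride transporter of the same family as Slc26a3, had 7.97, 6.63 and 8.70 in double knockout tumors 1 to 3, against 9.16, 8.95 and 9.15 in Apc knockout tumors 1 to 3. Every double knockout tumor was lower (log2 fold change −1.32, unadjusted p = 0.0368, adjusted p = 0.821), and still so without tumor 2 (−0.76). Slc26a2, a sulfate transporter, had a log2 fold change of 0.96, or 0.31 without double knockout tumor 2. Best2, a bestrophin anion channel of colonic goblet cells, had log2 signals of 6.42, 11.15 and 6.54 in double knockout tumors 1 to 3, against 6.72, 6.14 and 6.48 in Apc knockout tumors 1 to 3. It was thus high in 1 tumor, like Atp12a (log2 fold change 1.59, or 0.038 without double knockout tumor 2). The low Best2 values were likewise not shown to be above background, so the size of its fold is uncertain.

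Among 6 further carbonic anhydrases, 4 were positive and 2 negative (median 0.052, or −0.14 without double knockout tumor 2). Car2, the other abundant cytosolic enzyme of the colon, had 10.97, 13.26 and 8.83 in double knockout tumors 1 to 3, against 8.84 to 10.38 in the 3 Apc knockout tumors. Double knockout tumors 1 and 2 were the highest pair, as for Slc26a3 and Scnn1a (log2 fold change 1.62, or 0.50 without tumor 2). The cytosolic Car13 had a log2 fold change of 0.92 and the transmembrane Car12 of −0.87, or 0.60 and −0.19 without double knockout tumor 2, and neither passed.

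The remaining lists held 1 gene that passed. Of 4 genes of short-chain fatty acid uptake, 2 were positive and 2 negative. Slc16a1 (MCT1), a monocarboxylate transporter that takes up butyrate, was at 11.07, 11.39 and 10.92 in double knockout tumors 1 to 3, against 10.16, 10.87 and 9.42 in Apc knockout tumors 1 to 3. All double knockout tumors were higher, by a narrow margin over Apc knockout tumor 2 (log2 fold change 0.98, unadjusted p = 0.0361, adjusted p = 0.821, and 0.85 without double knockout tumor 2). Slc5a8, the sodium-coupled transporter for the same acids, had a log2 fold change of 0.84, or −0.47 without double knockout tumor 2. Slc16a3, which exports lactate, had one of −0.41, or 0.085 without that tumor.

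Of 8 genes of the sodium pump and potassium transport, 6 were positive and 2 negative, with log2 fold changes of 1.42 for the potassium channel Kcnk5, 0.65 for the channel subunit Kcne3 and −0.37 for the pump regulator Fxyd3. These were, without double knockout tumor 2, 0.50 for Kcnk5, 0.43 for Kcne3 and −0.029 for Fxyd3. Of 5 further aquaporins, 4 were positive and 1 negative, with 0.57 for Aqp11, −0.39 for Aqp1 and 0.081 for Aqp3, or 0.42 for Aqp11, −0.46 for Aqp1 and 0.13 for Aqp3 without that tumor. Of 6 genes of guanylin and secretagogue signaling, 3 were positive and 3 negative. Vipr1, a receptor for vasoactive intestinal peptide, had a log2 fold change of 1.09, or 0.39 without double knockout tumor 2. The guanylate cyclase Gucy2c, which raises cyclic GMP upstream of Cftr, had one of 0.69, and its ligand Guca2b one of −0.22, or 0.43 for Gucy2c and −0.083 for Guca2b without that tumor. None of the genes of these last 3 lists passed at the unadjusted threshold.

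The genes most like Slc26a3 across the 6 tumors, among 3578 genes with a range of at least 1 log2 unit, were Bnc2, Slc37a2, Prdm9, Trim72 and Smim24, with Pearson's r of 0.993 to 0.994. Without double knockout tumor 2, far from the rest, r was 0.942 to 0.979 over the other 5 tumors. All of these genes were read from the same arrays. Smim24, a small membrane protein, was at 10.58, 12.47 and 9.58 in double knockout tumors 1 to 3, against 9.59, 9.39 and 9.57 in Apc knockout tumors 1 to 3. Slc37a2, a sugar-phosphate transporter that is also on the surface colonocyte list, was at 8.54, 10.47 and 7.10 in double knockout tumors 1 to 3, against 7.23, 6.96 and 7.45 in Apc knockout tumors 1 to 3. In both, double knockout tumors 1 and 2 were the highest pair, as in Slc26a3. The genes most like Slc12a2 were Taf4b, Ano9, Dmgdh, Lzts3 and Cytip, with r of 0.961 to 0.976 over the 6 tumors, and for these Apc knockout tumor 2 and double knockout tumor 1 were the highest pair.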

How the data were processed

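RNA of 6 tumors was measured, 1 array per tumor, and the labels number the replicates of each group separately. The deposited values are log2 signals that the authors obtained with RMA in GeneSpring GX from Affymetrix Mouse Gene 1.0 ST arrays, which includes background correction, quantile normalization and a summary over the probes of a set. Quantile normalization gives the probe values of all arrays 1 distribution before they are summarized, so levels are relative. Which RMA version and annotation build they used is not given in the sources used here. Precision is limited by the number of arrays.

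Of 35556 probe sets, 21789 had 1 gene symbol in the platform annotation, 1621 several and 12146 none. Per gene, the single-symbol set with the highest mean was used. Tested were sets with a symbol whose mean over the 6 arrays reached the 20th percentile of all sets (5.88), using limma 3.58.1 in R 4.3.3 (lmFit, eBayes), two-sided, without covariates, with Benjamini-Hochberg adjustment at 0.05. The methods name a 20% cut-off without its measure, and the filter on level stands in for it. Exact permutation tests over tumors used SciPy 1.17.1. The script was tested on simulated data.

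The 10 genes, the other transport lists and the marker lists were chosen with earlier results of these data known. Named were the 10 genes, the 3 genes with the smallest p in each other transport list, Tgfbr2, Apc, defining markers and the 5 genes most like Slc26a3 and Slc12a2 by Pearson's r. Listed genes not matched to a single-symbol set were not analysed here. Promoter windows came from RefSeq (GRCm38.p6).

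The fits were repeated with each tumor left out, with the methods' t-test, without the filter or with it at the 40th percentile (7.15), after median centring or another quantile normalization, with robust eBayes and a trend, with the replicate number as a block, and with the mean of all sets of a gene.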

Additional observations from a re-analysis of the deposited data

How the results depend on the processing

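Log2 fold changes of Slc26a3, Scnn1a, Cftr and Slc12a2 (positive) and of Slc9a3 (negative) kept their direction under every alternative that was run. Without double knockout tumor 2, the signs of Car4 (−1.18), Aqp8 (−0.021), Atp12a (−0.15), Slc9a2 (−0.15) and Car1 (−0.25) turned. The last 2 also turned without double knockout tumor 1 (−0.084 for Slc9a2, −0.065 for Car1) and without Apc knockout tumor 2 (−0.25 for Slc9a2, −0.48 for Car1). With each tumor left out in turn, values ranged from −0.25 to 0.48 for Slc9a2, −0.48 to 0.88 for Car1, −1.18 to 1.33 for Car4, −0.021 to 2.25 for Aqp8 and −0.15 to 2.95 for Atp12a. The number of the 10 genes at an unadjusted p below 0.05 was 1 with limma, 0 with the methods' t-test, 0 with the 40th percentile filter and between 0 and 4 with a tumor left out. The number with non-overlapping groups was 0, beside 12.2% of all probe sets, and between 0 and 4 with a tumor left out. The 4 came without double knockout tumor 3, where 26.2% of all probe sets had such groups. Of the 48 genes of the other transport lists, 3 were below an unadjusted p of 0.05 with limma, 1 with the methods' t-test and between 1 and 10 with a tumor left out. The share of all probe sets below it was 5.6% with limma, 5.12% with the methods' t-test and 5.94% with the 40th percentile filter. With a tumor left out the share was 3.47% to 8.8%. Its highest value came without double knockout tumor 3, the fit that also gave the counts of 4 and 10. Over all probe sets, 347 higher and 745 lower became 238 to 710 higher and 439 to 1006 lower with a tumor left out, and 0 passed adjustment under any alternative. The cause of these shifts was not tested. Atp12a fell under the 40th percentile filter and has no value there.

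With the replicate number as a block, 8 of the 48 other transport genes were below the unadjusted threshold, beside 6.92% of all probe sets. Deviations of same-numbered tumors had correlations of −0.20, −0.065 and 0.092, and those of differently numbered tumors −0.21 to 0.26. With 3 tumors per group, these values cannot decide whether the numbers pair the tumors. Median centring moved every log2 fold change by 0.034 and turned no sign among the 10 genes.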
